A study of Homo sapiens with 3 samples.

Results

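The miR-148 and miR-152 family consists of hsa-miR-148a, hsa-miR-148b and hsa-miR-152, and its members were chosen by these exact names on the array. They were 3 of 851 human miRNA names and were carried by 6 probes and 48 spots per array, so that each member had 2 probes of 8 spots. The array measured miRNAs recovered with Argonaute 2 (Ago2), the silencing protein into which miRNA guide strands are loaded. Ago2 was immunoprecipitated (Ago2-IP) from Hep G2, a human liver cancer cell line, which was non-treated or had received 5 nM of a duplex mimicking either miR-195 or miR-497, and 24 hours was the time given for all 3 groups. Each group gave 1 array, made from 10 ng of labelled immunoprecipitated RNA, and the 3 arrays were on 1 slide. The non-treated cells had received no control duplex, so an effect of a mimic and an effect of transfection cannot be told apart. No group had a replicate array as analysed here, and hence no difference between arrays had a test or a replicate check.

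A miRNA guides Ago2 to mRNAs mainly through its seed, the bases near its 5′ end, and miRNAs that share a seed can bind the same sites. The members of this family come from separate genes, share their seed, and are known as repressors of DNA methyltransferases, including DNMT1. In liver, hsa-miR-148a is known as an abundant miRNA of mature hepatocytes, and low levels of family members have been described in tumours of several tissues.

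The mature sequences are shown because they hold what the members share and the few bases by which an array has to tell them apart. They were taken from RefSeq (GRCh38.p14), where all 3 members matched a name, and capitals mark the seed, bases 2 to 8 from the 5′ end.
hsa-miR-148a: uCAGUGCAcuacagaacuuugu
hsa-miR-148b: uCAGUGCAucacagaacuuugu
hsa-miR-152: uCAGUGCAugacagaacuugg
Among 2370 human mature miRNA names in the RefSeq table, these 3 were the only ones with this seed (0.127%). Counted from 1 at the 5′ end, hsa-miR-148b differed from hsa-miR-148a at C9U and U10C, and 20 of 22 bases were identical. Next to hsa-miR-148a, hsa-miR-152 carried C9U, U10G and U20G over the 21 bases that both hold, and next to hsa-miR-148b it carried C10G and U20G. The members were thus identical from base 11 to base 19 and were distinguished by bases 9 and 10, just past the seed, and by the 3′ end. The sequences of the array probes are not used here.

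The mature hsa-miR-148a lies at chr7:25949922-25949943 on the minus strand (GRCh38.p14), within MIR148A, which is spanned by an uncharacterised RefSeq locus. The mature hsa-miR-148b lies at chr12:54337278-54337299 on the plus strand, within MIR148B, which is spanned by COPZ1. The mature hsa-miR-152 lies at chr17:48037174-48037194 on the minus strand, within MIR152, which is spanned by COPZ2. COPZ1 and COPZ2 encode paralogous zeta subunits of the COPI vesicle coat, so 2 members lie in paralogous genes. The gene table holds no exons, and whether these positions are exonic or intronic was not resolved.

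The arrays differed in overall brightness. The scanner software flags spots that are well above background, and a probe was counted as such if over 50% of its used spots had the flag. A miRNA with 1 or more such probes is called measured. Measured human miRNAs numbered 168 (19.7%) in non-treated cells, 153 (18%) after miR-195 and 121 (14.2%) after miR-497. The 75th percentile of the 183 probes well above background on all arrays was 827, 778 and 263 units of background-subtracted signal, respectively, and the median spot-to-spot coefficient of variation of the measured probes was 9.40%, 8.19% and 11.6%. The transfected miRNAs matched their labels. The signal of hsa-miR-195 was 45.3, 38522 and 32.8 units in non-treated, miR-195 and miR-497 cells, and that of hsa-miR-497 was 11.8, 45.4 and 7903 units. As for the labelled cell type, the liver miRNAs hsa-miR-192 and hsa-miR-194 were well above background on every array, while hsa-miR-122, the defining miRNA of hepatocytes, was on none, at 3.62, -0.24 and 5.62 units. Of 10 miRNAs that mark blood, endothelial, mesenchymal or muscle cells, 2, 1 and 1 were well above background. These were hsa-miR-142-3p, a miRNA of blood cells, at 1521, 1244 and 397 units, and hsa-miR-199a-3p, of mesenchymal cells, at 32.8 units on the non-treated array. The summed signal of the 10 was 1582, 1281 and 414 units, and its part in the results below was not tested.

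Of the 3 members, hsa-miR-148a and hsa-miR-148b were measured with Ago2 in non-treated Hep G2 cells, and hsa-miR-152 was not. The signal of hsa-miR-148a was 72.5 units (SD between spots 5.63) in non-treated cells, 75.5 (2.75) after miR-195 and 22.7 (4.40) after miR-497. Thus it was nearly equal on the first pair and lowest on the third, where it was not well above background. The brighter of its 2 probes gave spots from 44.3 to 54.1 units (median 47.0) in non-treated cells, from 48.0 to 53.2 (median 50.1) after miR-195 and from 8.81 to 18.5 (median 14.3) after miR-497. The spots of the non-treated and miR-195 arrays overlapped, and every spot of the miR-497 array lay below them. These signals are not scaled, and the 75th percentile of the miR-497 array was also lowest, at 263 units against 827 and 778. In a bulk sample such as these, fewer cells and less of a miRNA per cell cannot be told apart. Its second probe gave spots from 16.4 to 28.5 units (median 25.9), from 21.8 to 27.4 (median 26.2) and from 7.18 to 12.2 (median 8.01), in the same order of arrays. On the miR-497 array 1 of 12 used spots of hsa-miR-148a was well above background, although 12 of 12 were positive and significant by the software's test of a spot against its background.

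The signal of hsa-miR-148b was 92.8 units (SD between spots 6.87) in non-treated cells, 83.0 (2.12) after miR-195 and 28.4 (6.27) after miR-497. It was the only member well above background on all 3 arrays, through 1 of its 2 probes. That probe gave spots from 79.3 to 97.1 units (median 89.5), from 79.1 to 81.9 (median 80.9) and from 19.4 to 39.1 (median 27.4) on the non-treated, miR-195 and miR-497 arrays. The ranges on the first pair of arrays overlapped, and that of the miR-497 array lay below both. On the miR-195 array 4 of the 8 spots of this probe carried an outlier flag and were left out, so the narrow range there rests on 4 spots. The second probe gave 4.67% (SD 2.84), 2.82% (2.10) and 2.92% (7.49) of the signal of the brighter one and was well above background on no array. For hsa-miR-148a the corresponding share was 50.2% (SD 9.78), 50.4% (4.59) and 64.1% (24.0), so that both of its probes carried signal and their proportion differed between arrays by less than the spread of spots.

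The signal of hsa-miR-152 was -3.77 units (SD between spots 4.20), -6.90 (3.92) and -3.77 (4.03) on the non-treated, miR-195 and miR-497 arrays, and no spot was well above background. Its highest used spot reached 4.08, 3.82 and 6.27 units, below the lowest signal of any measured human miRNA on the same array, which was 11.1, 23.7 and 19.1 units. This sets no more than a bound, and hsa-miR-152 was not detectable with Ago2 at this sensitivity. It therefore has no difference between arrays.

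**Figure D1:**
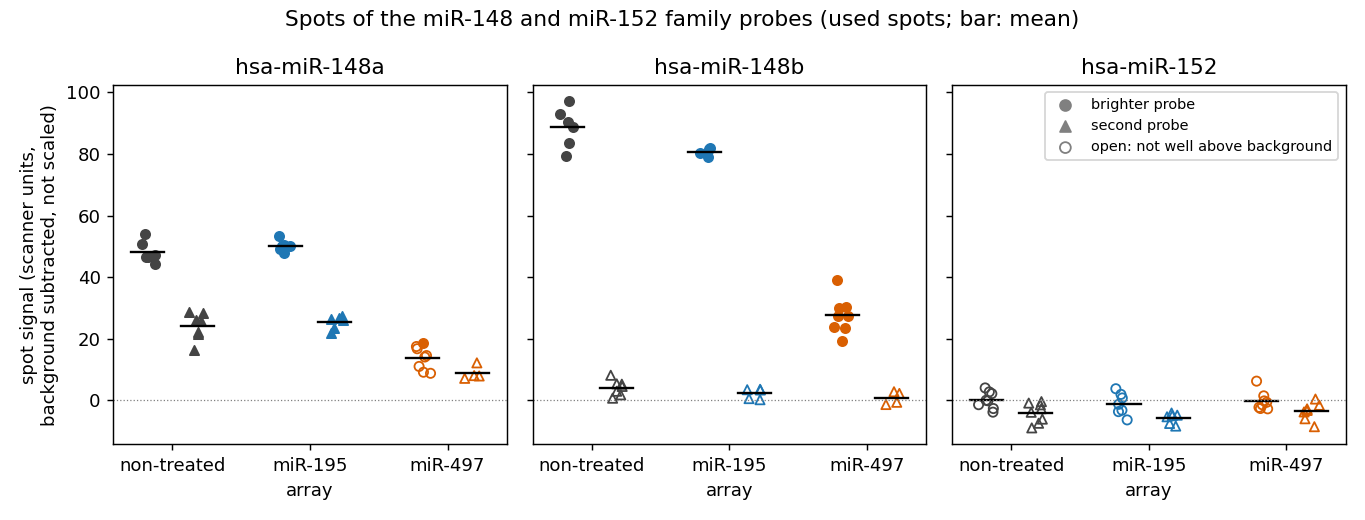
Background-subtracted signal, in scanner units and before scaling, of every used spot of the 6 family probes on the non-treated, miR-195 and miR-497 arrays. Circles are the brighter and triangles the second probe of a member, open symbols are spots not well above background, and bars are probe means. The spots of hsa-miR-148a and hsa-miR-148b lie lowest on the miR-497 array. Those of the brighter hsa-miR-152 probe scatter around 0 on every array, and those of its second probe lie nearly all below 0.

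The other strands of the hairpins were also examined, since a hairpin can load either strand into Ago2. On the array hsa-miR-148a* and hsa-miR-148b* had names and hsa-miR-152* had none. The signal of hsa-miR-148a* was -11.9, -14.3 and -16.6 units, and that of hsa-miR-148b* was 4.83, 3.08 and 1.86 units, on the non-treated, miR-195 and miR-497 arrays. Neither had a spot well above background on any array. Signal of the family was thus measured from the strands named hsa-miR-148a and hsa-miR-148b and not from the star strands.

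Within the family, the summed signal came from hsa-miR-148a and hsa-miR-148b, with the larger part from hsa-miR-148b on the non-treated and miR-195 arrays. With signals below 0 set to 0, hsa-miR-148a gave 43.9% (SD between spots 2.64) of the family signal in non-treated cells, 47.6% (1.11) after miR-195 and 44.4% (7.25) after miR-497. The remaining 56.1%, 52.4% and 55.6% came from hsa-miR-148b. On the miR-497 array hsa-miR-148a was not well above background, so no direction is drawn from its share there or from the ratios with that array below. These are shares of signal and not of molecules, because probes differ in their brightness per molecule, and the sum held 2 probes with signal for hsa-miR-148a against 1 for hsa-miR-148b. With the brightest probe of each alone, hsa-miR-148a gave 35.2%, 38.3% and 33.3%. By the software's total per miRNA its share after miR-497 was 67.4%, which turned the order of the members, and that total is described further on. Relative to hsa-miR-148b, hsa-miR-148a was higher on the miR-195 array than on the non-treated array by 0.22 on the log2 scale (SD 0.17), a difference slightly above its spot error that has no replicate. The same ratio changed by 0.03 (SD 0.45) from the non-treated to the miR-497 array and by -0.19 (SD 0.43) from the miR-195 to the miR-497 array, both within the spread of spots. Dividing an array by 1 factor leaves this ratio as it is, but quantile normalization, which reshapes the signals of an array, gave 0.16, -0.14 and -0.30 for the 3 comparisons. The first of these lay within the spot error, as did 0.06 with the normexp background correction, and the second had turned its sign. Normexp adds an offset of 50 to every spot, which shrinks log2 differences between signals this low, so nothing is read from its 0.06. Of the summed signal of all measured human miRNAs, with the transfected miRNAs and their passenger strands left out, hsa-miR-148b made up 0.0389%, 0.0388% and 0.0289% on the non-treated, miR-195 and miR-497 arrays. For hsa-miR-148a this share was 0.0304% in non-treated cells and 0.0353% after miR-195, and it has none after miR-497, where it was not measured.

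To set these differences beside those of the other miRNAs, each array was divided by its 75th percentile. A scaled difference is given in log2, first array minus second, with the SD propagated from the spots of both arrays. This SD, called the spot error, is that of single spots and is larger than the error of a mean over spots. A value below it can therefore still exceed the error of the mean. All 3 comparisons reuse arrays, and those with the non-treated array share it as control, so their values are given side by side and not correlated.

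After miR-195 the family differed little from non-treated cells. The summed family signal was 151.6 units after miR-195 and 161.5 units in non-treated cells, a scaled difference of -0.005 (SD 0.10). For hsa-miR-148a the scaled difference was 0.15 (SD 0.12), that is 1.11-fold higher on the miR-195 array, and for hsa-miR-148b it was -0.07 (SD 0.11). The members thus lay on either side of 0, and that of hsa-miR-148a alone exceeded its spot error. This held under part of the other processing only. Below that error, hsa-miR-148a differed by 0.05 with quantile normalization and in the deposited table, by 0.06 without scaling, by 0.07 with normexp and by 0.118 with all spots kept. The offset of normexp, 50 units per spot, shrinks differences between signals this low, so its 0.07 decides nothing. Above that error, hsa-miR-148a differed by 0.13 with median scaling and by the software total. The value was 0.14 with the brightest probe alone and 0.41 with spike-in probes as the scale. With the median over spots it was 0.124, and the spot error was also 0.124. With the percentile over every non-control probe hsa-miR-148a differed by -0.39. Both probes of hsa-miR-148a gave nearly the same value, 0.14 (SD 0.12) for the brighter and 0.15 (SD 0.29) for the second. Of the 2 members measured on both arrays, 0 passed 2-fold in either direction, as against 3.4% of 147 human miRNAs. The median of these 147 miRNAs was -0.01. In order of difference from the highest, hsa-miR-148a was number 48 and hsa-miR-148b number 85 of 147. Without scaling, 0 of the 2 members fell 2-fold or more below their non-treated level, as against 0.68% of the 147 miRNAs. The scaling set these values, and with 8 spike-in probes as the scale the family differed by 0.26 and the median miRNA also by 0.26.

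After miR-497, the signals of both detected members were far lower in units than in non-treated cells, while their scaled values differed by less than their spot errors. Before scaling, hsa-miR-148b on the miR-497 array was at 30.6% of its non-treated signal, a log2 difference of -1.71, and the family sum of 47.3 units was at 29.3%, a log2 difference of -1.77. The only member measured on both arrays was therefore at least 2-fold lower without scaling, as were 95.8% of the 118 human miRNAs compared. After scaling, the difference of hsa-miR-148b was -0.06 (SD 0.34) and that of the family was -0.12 (SD 0.28), both smaller than their spot errors. For the 1 member measured on both arrays, 0 passed 2-fold, as against 3.39% of 118 miRNAs, whose median was 0.03, and hsa-miR-148b was number 74 of 118 from the highest. For hsa-miR-148a, which was not well above background on the miR-497 array, the scaled value was -0.03 (SD 0.30). It was 0.08 with median scaling, and no direction or bound is drawn from it. With normexp, whose offset of 50 exceeded the signals of both members on the miR-497 array, the family differed by 1.08 and stood 0.62 above the median of all miRNAs, and hsa-miR-148b stood 0.50 above it. With the spike-in probes as the scale the family differed by -1.31, past 2-fold, and the median miRNA by -1.16.

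Between the miR-497 and miR-195 arrays, which compares the mimics with each other, the picture was the same. Without scaling hsa-miR-148b differed by -1.55 on the log2 scale and so lay 2-fold or more below its level after miR-195, as did 97.4% of 117 miRNAs. Scaled, it differed by 0.02 (SD 0.32), and the family by -0.12 (SD 0.27). For the 1 measured member, 0 passed 2-fold, as against 1.71% of 117 miRNAs, whose median was 0.02, and hsa-miR-148b was number 62 of 117. The scaled value of hsa-miR-148a was -0.17 (SD 0.28), within its spot error, and -0.05 with median scaling, so no bound is drawn from it either. With normexp the family differed by 1.04. By the spike-in probes the family differed by -1.57 and the median miRNA by -1.44. The family sum includes the signal of hsa-miR-152 below 0. With hsa-miR-152 left out, a choice made after seeing the data, the family differed by 0.03 for miR-195 against non-treated, by -0.04 for miR-497 against non-treated and by -0.07 for miR-497 against miR-195.

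**Figure D2:**
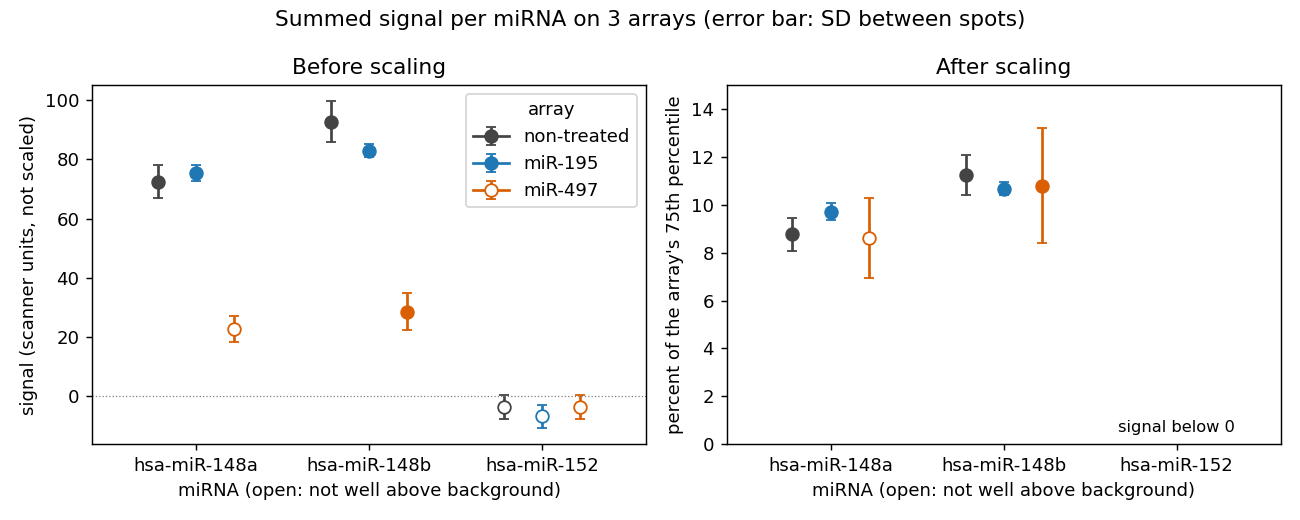
Summed signal of each member on the non-treated, miR-195 and miR-497 arrays in scanner units (left) and as a percent of the array's 75th percentile (right). Error bars are the SD between spots, and open symbols are values not well above background. The lower signals on the miR-497 array at left come to within the error bars of the others at right, and hsa-miR-152 lies below 0.

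**Figure D3:**
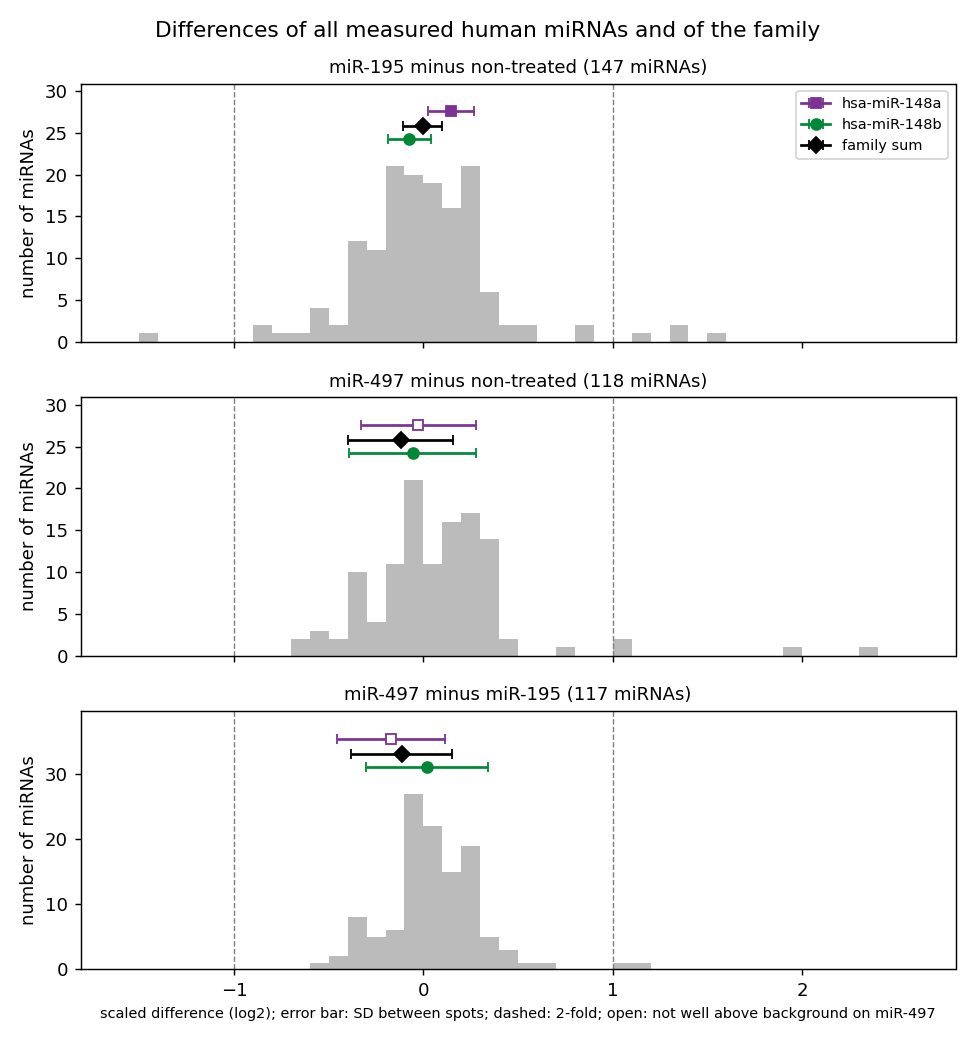
Histograms of the scaled log2 difference of all human miRNAs measured on both arrays of each comparison (147, 118 and 117 miRNAs), with hsa-miR-148a, hsa-miR-148b and the family sum above them. Error bars are the SD between spots, dashed lines mark 2-fold, and the open squares are values of hsa-miR-148a not well above background on the miR-497 array. All family values lie between the 2-fold lines. In the comparisons of miR-497 with non-treated and with miR-195 the family sum, at -0.12 in each, lies below the median of all miRNAs, 0.03 and 0.02.

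The miRNAs most like the family across the arrays were sought among 116 human miRNAs measured on all 3 arrays, by the distance between their scaled log2 differences from the non-treated array and those of the family. The nearest was hsa-miR-103 at a distance of 0.019, with 2796, 2616 and 829 units on the non-treated, miR-195 and miR-497 arrays. It was followed by hsa-miR-142-5p, from the same hairpin as hsa-miR-142-3p, at 0.034, with 191, 182 and 57.1 units, and by hsa-miR-128 at 0.059, with 172, 161 and 52.6 units. The median distance was 0.36, and 32 of the 116 miRNAs lay within 0.25, so that many miRNAs lay closer to the family than its spot error of 0.28 for miR-497 against non-treated. The order rests on the inclusion of hsa-miR-152. With it left out, an alternative added after seeing the data, hsa-miR-502-3p was nearest at 0.040, hsa-miR-128 was number 2 at 0.044 and hsa-miR-103 was number 7 at 0.069. A likeness over 3 arrays is a description and carries no test.

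Other miRNAs described as repressors of DNA methyltransferases were set beside the family. Of 7 such miRNAs, 4 were measured on every array, namely hsa-miR-29a, hsa-miR-29b and hsa-miR-29c, which are known to target the de novo methyltransferases, and hsa-miR-185, described as a repressor of DNMT1. The remaining hsa-miR-342-3p, hsa-miR-126 and hsa-miR-143 failed that criterion on each of the arrays. The 4 had a median scaled difference of 0.06 for miR-195 against non-treated, of 0.13 for miR-497 against non-treated and of 0.01 for miR-497 against miR-195, and 0 of 4 passed 2-fold in any comparison, as against 3.4%, 3.39% and 1.71% of all measured miRNAs. The medians of all measured miRNAs were -0.01, 0.03 and 0.02. Single values ranged from -0.26 for hsa-miR-29b after miR-195 to 0.32 for hsa-miR-29a after miR-497, both against non-treated cells.

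The deposited table, labelled as normalized values, gave another picture of hsa-miR-148a. In that table hsa-miR-148a differed by -0.30 between miR-497 and non-treated cells on the log2 scale and hsa-miR-148b by -1.65. Between the miR-497 and miR-195 arrays these values were -0.35 and -1.50. The totals of their own probes, as the scanner software gives them, differed by -1.65 and -1.68 in the first comparison and by -1.69 and -1.50 in the second. The members thus differed by similar amounts by their own probes and by unlike amounts in the table. The table held the log2 of the software's total per miRNA, or 0 where that total was below 1. These values thus showed no scaling between arrays. For hsa-miR-148a on the miR-497 array this total was 30.5 units, whereas its own probes gave 4.70 and 7.33 units, a sum of 12.0.

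The first of these probe totals was 2.40 times its error and the total per miRNA left it out, as it did for other probes under 3 times their error. The total exceeded the other probe by 23.2 units, which is the total of hsa-miR-146b-5p on that array, 23.2 units. In the same way the total of hsa-miR-148b, 46.0 units on the non-treated and 41.5 on the miR-195 array, reappeared in that of hsa-miR-149, which was 54.3 and 51.0 units although its own probe above 3 times its error gave 8.25 and 9.43. Both hsa-miR-146b-5p and hsa-miR-149 were singled out after their values were seen. Over all human miRNAs with a total, 60 of 191 in non-treated cells (31.4%), 61 of 187 after miR-195 (32.6%) and 46 of 139 after miR-497 (33.1%) had a total above that of their own probes. In each of these cases the excess equalled the total of another miRNA to within 0.1%. The values of the family given above come from its own spots and hold none of this excess.

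**Figure D4:**
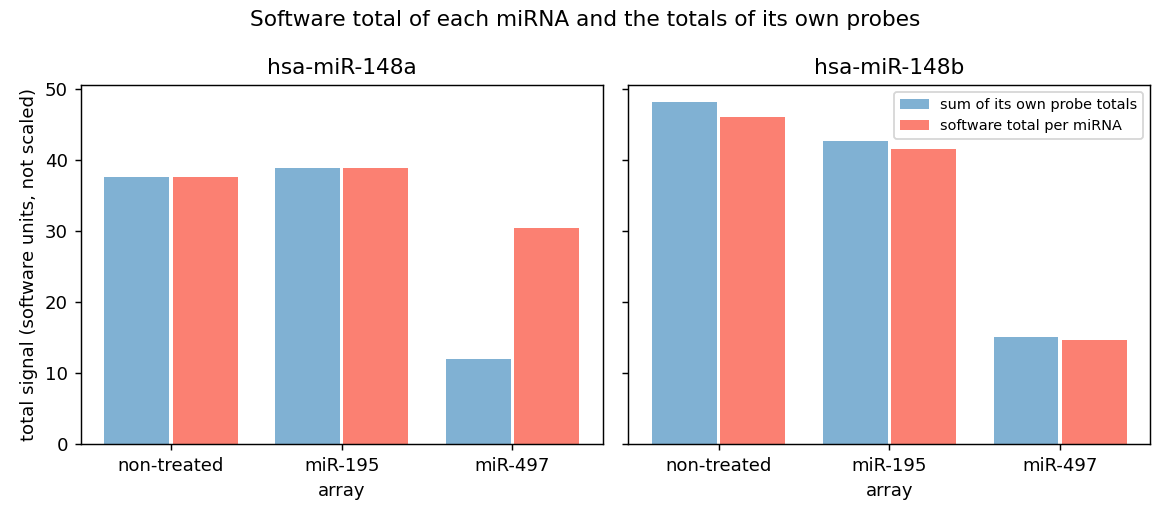
Total signal, in software units before scaling, of hsa-miR-148a and hsa-miR-148b on each array, as the sum of their own probe totals and as the software's total per miRNA. The pairs of bars are nearly equal except for hsa-miR-148a on the miR-497 array, where the software total is 30.5 units and its own probes sum to 12.0.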

How the data were processed

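Ago2-IP RNA of 3 groups, 1 array each, was analysed, and groups were taken from the labels. The deposited scanner files give the intensity of each spot, not log-transformed, from which Feature Extraction (version 10.7.1.1) had already removed background and spatial trend, and arrays had not been scaled to each other. Their headers name hg19, whereas coordinates are those of the RefSeq table (GRCh38.p14). The authors also deposited a table of log2 values, made according to its first line with a threshold of 1 and a 75th percentile shift. The family's values in it equalled the log2 of the software totals, or 0 where these were below 1, so no such shift was seen. The study's methods state that samples were analysed in duplicate. A second array per group was not analysed here.

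Control and outlier-flagged spots were left out. Signals were averaged over spots per probe, summed per miRNA and divided by the 75th percentile of the 183 probes well above background on all arrays. A miRNA that failed this criterion on an array has no measured difference there. The SD between spots is that of single spots propagated over probes and covers technical error within an array only. Precision is limited by the number of arrays. With no replicates, differences were read against 2-fold, over human miRNAs measured on both arrays without the transfected miRNAs and their passenger strands. No saturated spot was found.

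The miRNAs named were the members, their star strands, other miRNAs with their seed, the transfected miRNAs, 7 repressors of DNA methyltransferases, cell type markers and the 3 nearest patterns. Members and lists were chosen with earlier results of these data known. Alternatives were other scalings, the normexp background correction (offset 50; limma 3.58.1, R 4.3.3), other summaries, all spots, the median over spots and the deposited table. Python 3.11.15 with numpy 2.4.6 and pandas 2.3.3 was used, and the computation was tested on simulated data.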

Additional observations from a re-analysis of the deposited data

How the results depend on the processing

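Of 159 recomputed values of the family sum, the share and ratio of hsa-miR-148a and the number of members past 2-fold, 124 moved by less than the spread of spots or, for counts, not at all, and 35 moved further. The 124 include shares and ratios under another scaling factor or none, which cannot move them. In the order miR-195 against non-treated, miR-497 against non-treated and miR-497 against miR-195, the family differed by -0.54, -1.50 and -0.96 with the percentile taken over every non-control probe, by 0.26, -1.31 and -1.57 with 8 spike-in probes, and in the latter comparisons by -1.77 and -1.68 without scaling. Such a scaling shifts all miRNAs equally, and next to the median of all miRNAs the family stood at 0.00, -0.15 and -0.14 under each. With normexp the differences after miR-497 were 1.08 and 1.04, where the offset of 50 exceeded both members' signals. They were 0.76 and 0.73 by the software total and -0.89 and -0.83 in the deposited table, where hsa-miR-148a changed relative to hsa-miR-148b by 1.35 and 1.15, as by that total. The total of hsa-miR-148a on the miR-497 array held that of another miRNA. With own probe totals, added after seeing the data and scaled like the software total, the family differed by -0.01 and -0.02. The deposited values were not scaled, and unscaled own probe totals are given above. The family values by the software total, the deposited table and own probe totals leave out hsa-miR-152. Members past 2-fold numbered 0 in each comparison. After miR-497 against non-treated 1 passed, hsa-miR-148b (lower) with the all-probe percentile, spike-ins, no scaling and the deposited table. By the software total it was hsa-miR-148a (higher). Against miR-195 the same held, except 0 with the percentile. Of 147, 118 and 117 miRNAs 5, 4 and 2 passed 2-fold. These became 10, 111 and 17 with the all-probe percentile, 7, 81 and 113 with spike-ins and 5, 113 and 114 without scaling. They were 2, 10 and 7 with normexp, 17, 27 and 22 by the software total and 17, 115 and 116 in the deposited table. The mean of log2 values gave 2, 3 and 1, quantile normalization 4, 3 and 1, and a 1.5-fold limit 12, 7 and 3. The share of hsa-miR-148a in non-treated, miR-195 and miR-497 cells became 37.1%, 38.0% and 34.1% with normexp and 35.2%, 38.3% and 33.3% with the brightest probe alone, and after miR-497 67.4% by the software total and 66.1% in the deposited table. With normexp the offset also left hsa-miR-152 above 0 and in the family sum. The lower normexp shares are therefore not read as a shift to hsa-miR-148b. The cause of these moves was not otherwise tested. Differences of single members moved beyond the spread of spots in 24 of 75 cases. The mean of log2 values over probes measured on all arrays gave no value for hsa-miR-148a, so the family value there was that of hsa-miR-148b alone. With 1 array per group, leaving out arrays or pairing them was not possible. On the miR-497 array, signals near background limited what could be measured of hsa-miR-148a, and on every array of hsa-miR-152.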
